A study of Mus musculus with 24 samples.

Results

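The genes of the p53 axis that lies downstream of the Arf product of the Cdkn2a locus were followed in cultured mouse liver endothelial cells in which P16Ink4a had been silenced or overexpressed. The set holds 10 genes: the tumour suppressor gene Trp53, its inhibitors Mdm2 and Mdm4, and the p53 target genes Ccng1, Bax, Bbc3, Sesn2, Zmat3, Phlda3 and Eda2r. They were taken by gene name among the protein-coding rows of the deposited count table, which lists 56748 genes, 21970 of them protein-coding. All 10 were found once each and passed the filter on low counts in every comparison. The rule itself uses no measured value, but these genes and the wider gene lists below were chosen with earlier results of these data known. Their counts beside the shares of all genes are therefore not independent of the data.

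Cells came from livers of female C57BL/6 mice, 3 months old, and were enriched on magnetic beads against Cd31, a surface molecule of all endothelium, or against Cd146, another endothelial surface molecule. Each population was transduced with 1 of 4 lentiviral constructs. P16 shRNA, in the vector pLKO.1, was meant to silence P16Ink4a, and nc shRNA, in the same vector, was its negative control. P16 carried the P16Ink4a coding sequence in pLenti-C-mGFP-P2A-Puro, and the empty vector was its control. RNA was taken 1 week after transduction, so all 8 groups share culture and a lentivirus, and none is uninfected. The study describes the product of the P16 construct as a fusion with GFP. Each group held 3 libraries, numbered as replicates, and nothing in the sources used here says that these came from separate animals or cultures. The p-values therefore measure the spread between these samples, which may in part be technical.

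p53 is a transcription factor that is kept low by Mdm2, a ubiquitin ligase that tags it for degradation, and by Mdm4, a relative of Mdm2 that binds its activation domain. The Arf protein, read from the same locus as p16Ink4a in another frame, binds Mdm2 and so spares p53, whereas p16Ink4a acts on the kinases Cdk4 and Cdk6. Because p53 turns on Mdm2 itself, Mdm2 mRNA is both a brake on p53 and a readout of it, and p53 is controlled mostly as a protein rather than through its mRNA. RNA counts per gene show neither protein stability nor which of the transcripts of Cdkn2a was present. In such bulk samples, fewer cells of a type and less RNA per cell cannot be told apart.

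p53 binds pairs of a short palindromic half-site. The promoter windows of RefSeq, on GRCm38.p6, reach from 250 bases before to 50 bases after each annotated start, and 9 of the 10 members have at least 1. The p53 half-site consensus, 10 bases long and read on both strands, was found in the windows of 4 members. It occurred in 2582 of the 27025 genes with a window, or 9.55%, and in 10 of 37 other p53 targets with a window, or 27.0%. Of all 32851 windows 8.36% held it. The sequences of these 4 are shown because their windows hold the half-site. The capitals mark the half-site, and each run holds 40 bases on either side of it, 5′ to 3′ on the strand of the gene. They lie at chr11:69580244-69580333 on the plus strand for Trp53, at chr10:117710895-117710984 on the minus strand for Mdm2, at chr11:40755422-40755511 on the minus strand for Ccng1 and at chr7:45467050-45467139 on the minus strand for Bax.
Trp53: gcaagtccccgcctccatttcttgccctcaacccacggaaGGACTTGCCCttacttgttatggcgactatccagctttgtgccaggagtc
Mdm2: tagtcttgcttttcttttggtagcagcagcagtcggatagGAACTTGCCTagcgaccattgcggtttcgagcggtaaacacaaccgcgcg
Ccng1: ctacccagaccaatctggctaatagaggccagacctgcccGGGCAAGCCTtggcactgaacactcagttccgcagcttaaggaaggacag
Bax: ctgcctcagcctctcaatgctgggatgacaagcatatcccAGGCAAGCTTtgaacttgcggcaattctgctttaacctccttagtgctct

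The half-site began 75 bases before the start in Trp53, 186 in Mdm2, 185 in Ccng1 and 201 in Bax. In Ccng1 a neighbouring stretch that differed from the consensus at 1 base adjoined it with 0 bases between, and in Bax such a stretch lay 1 base away. The best neighbour differed at 3 bases in Trp53 and at 4 in Mdm2. No exact half-site was in the windows of Mdm4, Bbc3, Sesn2, Phlda3 or Eda2r, which says only that these letters are not there. Zmat3 is the tenth member. A match is a description of sequence and not a site of binding, which was not measured.

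In the count table the members lie at chr11:69471185-69482699 (Trp53, plus strand), chr10:117524780-117546663 (Mdm2, minus), chr1:132887222-132958299 (Mdm4, minus), chr11:40639379-40646138 (Ccng1, minus), chr7:45111121-45116322 (Bax, minus), chr7:16042318-16052130 (Bbc3, plus), chr4:132219343-132237812 (Sesn2, minus), chr3:32388941-32420163 (Zmat3, minus), chr1:135693857-135696874 (Phlda3, plus) and chrX:96377446-96420822 (Eda2r, minus). These are whole gene bodies with introns and UTRs, and counts were given per gene. The table names no build, the submitters' processing notes name mm9, and only 4.07% of its genes start within 1000 bases of their place in a GRCm38 annotation, so these positions must not be mixed with the promoter positions. Trp53 shares 324 bases with a lncRNA on the opposite strand that had a mean of 21.5 counts a library against 2486 for Trp53, and whether strand was used in counting is not given in the sources used here. Sesn2, Mdm4 and Bax overlap other genes with means of 8.6, 3.4 and 0 counts.

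The libraries held 15409767 to 26470392 counts each. Levels are given in CPM, counts scaled to library size with TMM factors. The targeted gene followed the labels: Cdkn2a lay between 36.2 and 75.9 CPM with nc shRNA and between 5.12 and 9.22 CPM with P16 shRNA in Cd31 cells, and between 94.5 and 196 against 7.79 to 25.7 CPM in Cd146 cells. The log2 fold changes were -3.08 ± 0.35 (SE; adjusted p = 0.0218, edgeR) and -3.21 ± 0.53 (adjusted p = 0.361). With P16 it lay at 137 to 330 CPM in Cd31 cells and 228 to 834 CPM in Cd146 cells, above 32.5 to 79.9 and 69.6 to 104 CPM with the empty vector, by 2.02 ± 0.43 (adjusted p = 0.947) and 2.44 ± 0.50 (adjusted p = 0.986) on the log2 scale. Markers of all endothelium were present but uneven, with Pecam1 at 4.05 to 281 CPM, and those of sinusoidal endothelium, as which the study describes the Cd146 cells, differed among themselves: Stab2 and Clec4g stayed at or under 0.962 and 0.225 CPM and Lyve1 at or under 7.53 CPM, while Stab1, which macrophages also express, lay at 3.63 to 430 CPM. Mesenchymal marker genes summed to 6650 to 51136 CPM, above the endothelial sum of 316 to 2869 CPM in every library, with Col1a1 at 460 to 19400 CPM. These markers also differed among themselves: 8 of 13 were at 1 CPM or more in every library. Lrat, Reln and Rgs5 stayed at or under 0.136, 0.510 and 4.46 CPM. The share of counts on protein-coding genes under 2000 bases was 7.29 to 10.2% in 22 libraries. It reached 11.9% in replicate 2 of Cd31 P16 and 14.1% in replicate 6 of Cd146 P16 shRNA, which therefore stand apart, and results that rest on these libraries are given with and without them.

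Per kilobase of gene length, Ccng1 (cyclin G1, a partner of a phosphatase that acts on Mdm2) and Phlda3 (a p53 target that blocks Akt at the membrane) were the highest members, at 208 ± 44.3 and 200 ± 54.5 CPM per kb (SD, n = 24). Ccng1 was above Phlda3 in 15 of 24 libraries, so these neighbours did not separate. Bax, the pore former of the mitochondrial death pathway, followed at 72.2 ± 17.3 and Mdm2 at 50.1 ± 13.6 CPM per kb. Trp53 stood at 29.9 ± 4.01 and Sesn2, a stress protein that restrains mTORC1, at 24.7 ± 3.71 CPM per kb, with Trp53 the higher in 20 of 24 libraries. Bbc3 (Puma, a BH3-only killer protein) and Eda2r (a receptor of ectodysplasin A2) did not separate, at 15.8 ± 3.73 and 15.6 ± 3.71 CPM per kb, since Bbc3 was the higher in 11 of 24. Zmat3, a zinc-finger protein that binds RNA, had 12.9 ± 1.90 and Mdm4 6.49 ± 1.43 CPM per kb.

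**Figure D1:**
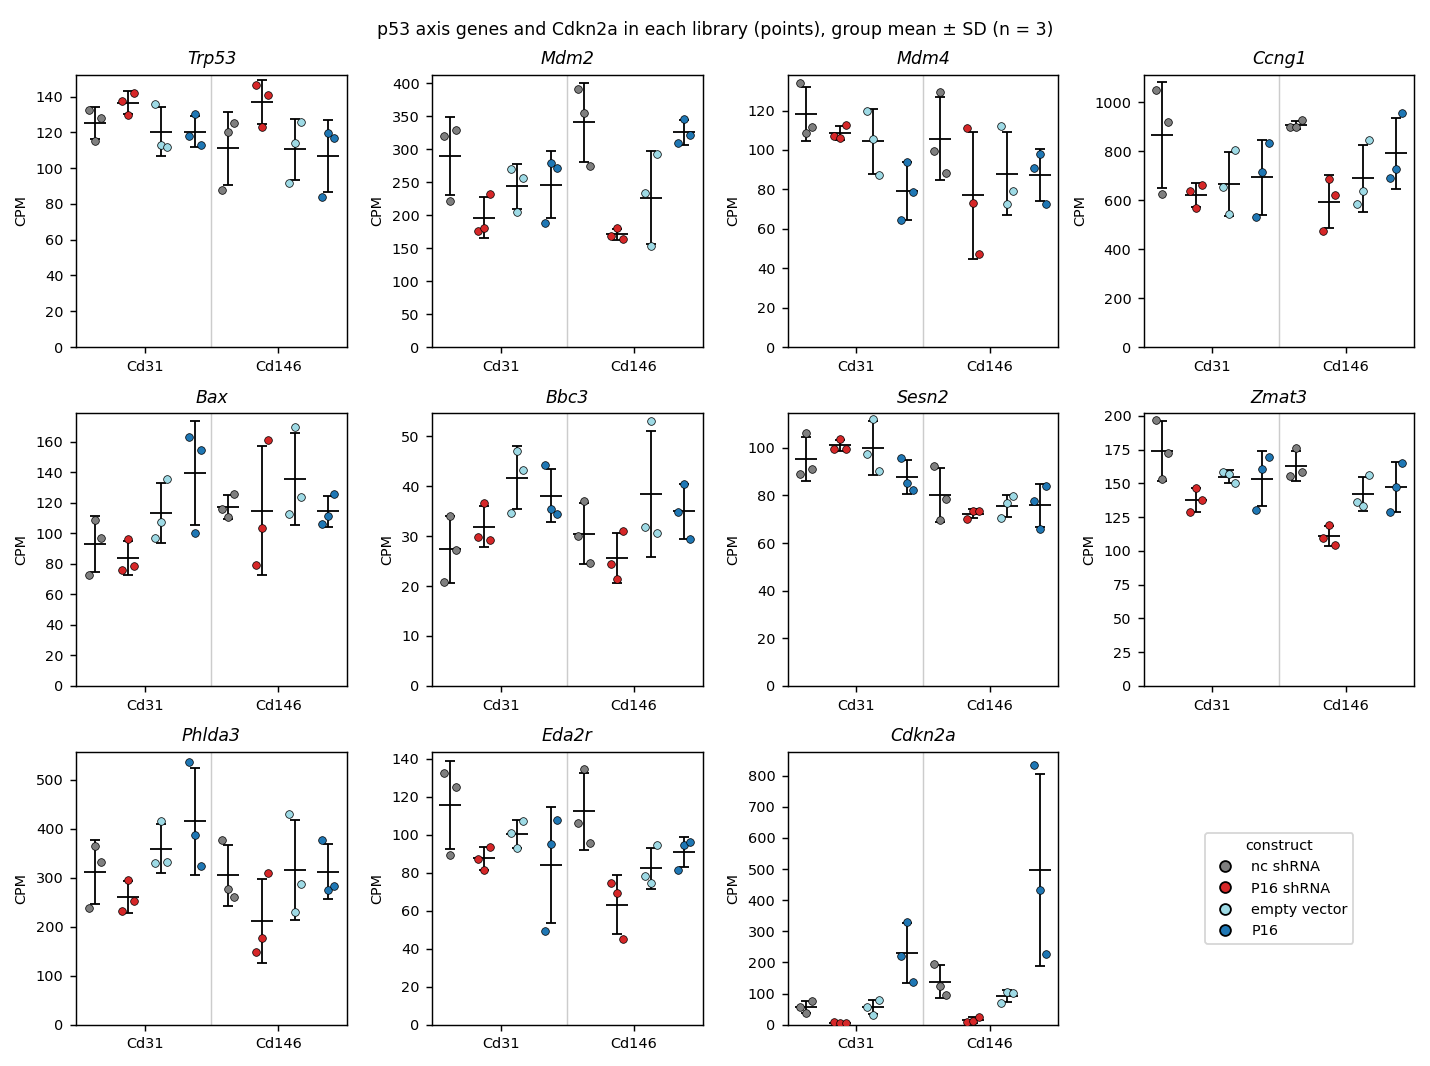
Level in CPM (vertical axes, from 0) of each of the 10 genes and of Cdkn2a in the 24 libraries (points), by population and construct, with bars for the group mean ± SD (n = 3). The P16 shRNA group of Cd146 cells has the lowest mean of the 8 groups for 8 of the 10 members, and Trp53 varies least between groups. That lowest mean lies below the next group by more than both SDs only for Zmat3 and Eda2r.

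Among the 8 groups, the mean of Trp53 varied least, with 1.28 times between the highest and the lowest, and that of Mdm2 most, with 1.99 times. Cd146 cells with P16 shRNA had the lowest group mean for 8 of the 10 members, the exceptions being Trp53, for which they had the highest, and Bax. Only for Zmat3 and Eda2r was the gap to the next lowest group larger than both SDs. For Trp53 the P16 shRNA groups of both populations had means of 137 CPM. The share of all genes with their lowest mean in this Cd146 group was not counted. The highest group mean belonged to an nc shRNA group for Mdm2, Mdm4, Ccng1, Zmat3 and Eda2r, in none of them by more than both SDs over the next group.

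Silencing of P16Ink4a was compared with nc shRNA within each population. The same 4 members, Mdm2, Ccng1, Zmat3 and Eda2r, were the ones that differed at an unadjusted p under 0.05 (edgeR's quasi-likelihood test), all 4 lower with P16 shRNA in both populations. Their group means were 67.6 to 79.1% of the control means in Cd31 cells and 50.2 to 68.2% in Cd146 cells. None of the 10 passed an adjusted p of 0.05 in either population in this main fit, which has no replicate block. Over all genes tested, 1.30% passed the adjusted and 19.8% the unadjusted threshold in Cd31 cells, and 10.3% were lower at the unadjusted one. In Cd146 cells the same shares were 0%, 11.6% and 6.18%. Thus 4 of 10 members lower stand beside 10.3% and 6.18% of all genes. The median log2 fold change of the 10 was -0.20 in Cd31 and -0.49 in Cd146 cells, against 0.00 and 0.03 over all genes tested.

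Trp53 mRNA itself was at 132, 115 and 128 CPM with nc shRNA and 138, 130 and 142 CPM with P16 shRNA in Cd31 cells. The Cd146 libraries had 87.5, 120 and 125 against 147, 123 and 141 CPM. The libraries of both constructs overlapped in both populations, and the log2 fold changes of 0.13 ± 0.10 (SE) and 0.30 ± 0.19 did not pass the unadjusted test (edgeR, unadjusted p = 0.223 and adjusted p = 0.504 in Cd31, unadjusted p = 0.165 and adjusted p = 0.537 in Cd146 cells).

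Mdm2 had the largest difference among the members. In Cd31 cells it was at 320, 222 and 329 CPM with nc shRNA in replicates 1, 2 and 3 and at 176, 180 and 232 CPM with P16 shRNA, so that replicate 2 of the control lay within the silenced range. The Cd146 controls had 392, 355 and 274 CPM and the silenced libraries 168, 180 and 164 CPM, all 3 below every control. The log2 fold change was -0.56 ± 0.19 (SE; unadjusted p = 0.0203, adjusted p = 0.172, edgeR) in Cd31 and -0.99 ± 0.19 (unadjusted p = 0.00126, adjusted p = 0.382) in Cd146 cells. Mdm4, the other inhibitor, differed by less: -0.11 ± 0.11 in Cd31 and -0.46 ± 0.33 in Cd146 cells on the log2 scale, with overlapping groups.

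Ccng1 was at 1051, 627 and 921 CPM with nc shRNA and 636, 568 and 663 CPM with P16 shRNA in Cd31 cells, where replicate 2 of the control again lay among the silenced libraries. In Cd146 cells the controls lay close together at 900, 899 and 927 CPM and the silenced libraries at 474, 687 and 623 CPM, without overlap. The log2 fold changes were -0.47 ± 0.19 (unadjusted p = 0.0455, adjusted p = 0.242, edgeR) and -0.61 ± 0.19 (unadjusted p = 0.0175, adjusted p = 0.397).

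Eda2r was at 133, 89.4 and 125 CPM with nc shRNA and 87.5, 81.6 and 93.9 CPM with P16 shRNA in Cd31 cells. The values in Cd146 cells were 107, 135 and 95.8 against 74.5, 69.6 and 45.4 CPM. Only the Cd146 groups were free of overlap. The log2 fold changes were -0.39 ± 0.16 (unadjusted p = 0.0441, adjusted p = 0.238, edgeR) and -0.83 ± 0.24 (unadjusted p = 0.0120, adjusted p = 0.384). Bax and Bbc3, which act together at the mitochondrion, did not share this pattern: the log2 fold changes of Bax were -0.14 ± 0.17 and -0.03 ± 0.28 and those of Bbc3 0.23 ± 0.20 and -0.25 ± 0.23. Bax lay at 72.7 to 109 CPM in the Cd31 controls and at 75.9 to 96.3 CPM with silencing.

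Zmat3 was at 197, 153 and 172 CPM with nc shRNA and 129, 147 and 138 CPM with P16 shRNA in Cd31 cells, and was the single member whose libraries did not overlap there. The Cd146 libraries had 155, 176 and 158 against 110, 119 and 105 CPM, again without overlap. The log2 fold changes were -0.33 ± 0.12 (unadjusted p = 0.0295, adjusted p = 0.20, edgeR) and -0.55 ± 0.15 (unadjusted p = 0.00887, adjusted p = 0.382). All genes tested gave 27.4% without overlap in Cd31 and 20.5% in Cd146 cells, beside 1 and 4 of the 10 members. Phlda3 had log2 fold changes of -0.26 ± 0.18 and -0.52 ± 0.32, and Sesn2 of 0.09 ± 0.10 and -0.15 ± 0.17, neither past the unadjusted test.

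**Figure D2:**
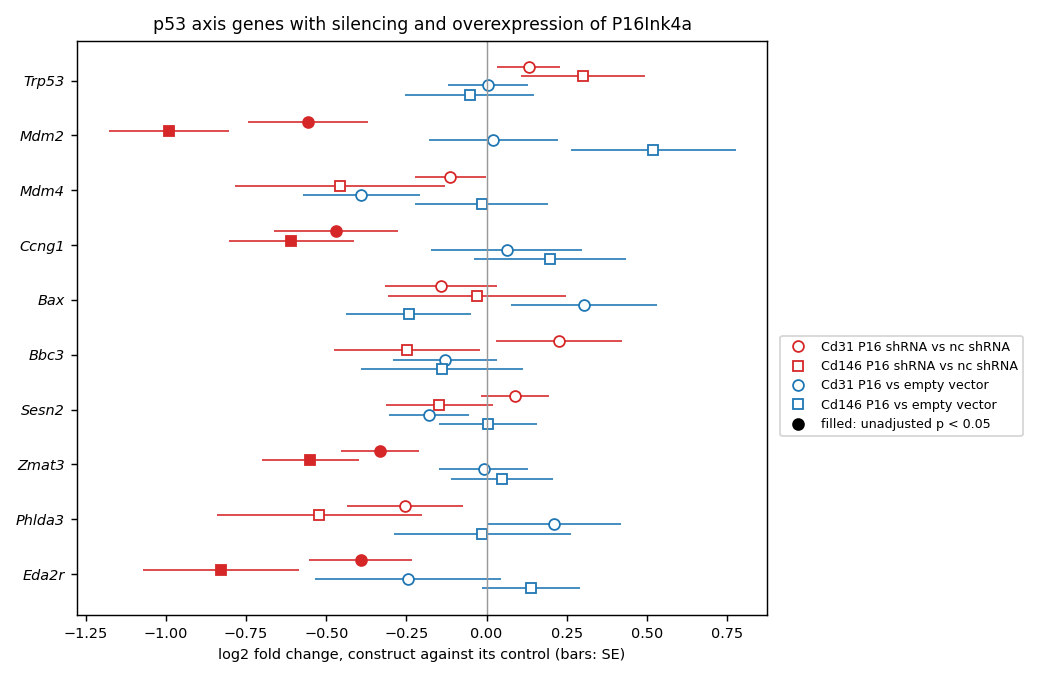
Log2 fold change (horizontal axis) of each member with P16 shRNA against nc shRNA (red) and with P16 against empty vector (blue) in Cd31 (circles) and Cd146 cells (squares), with bars for the SE and filled symbols for an unadjusted p under 0.05. Filled symbols occur for Mdm2, Ccng1, Zmat3 and Eda2r with silencing, all to the left of 0, and for no member with overexpression.

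Libraries that carried the same replicate number deviated together from their group means, so a fit with the replicate number as a block was read beside the main one. In Cd31 cells the 3 pairs were lower with P16 shRNA for Mdm2, Ccng1, Zmat3, Eda2r and Phlda3, and higher for Trp53 (log2 ratios of 0.06 to 0.17) and Bbc3 (0.10 to 0.52). The share of all genes for which these 3 pairs agreed in direction was not counted, so no excess is read from this. With the block over these 6 libraries, Mdm2 (log2 fold change -0.55, adjusted p = 0.0138), Ccng1 (-0.44, adjusted p = 0.0330) and Eda2r (-0.38, adjusted p = 0.0414) passed the adjusted test in edgeR, where 18.8% of all genes passed. With the block over the 12 libraries of the population, Mdm2 (adjusted p = 0.00707) and Ccng1 (adjusted p = 0.0199) did, beside 16.8% of all genes. These 3 and 2 of 10 members were all lower, while the 18.8% and 16.8% count genes in both directions. The shares are therefore not alike, and no excess is read from them.

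In Cd146 cells only 2 pairs could be formed, and both were lower with P16 shRNA for 8 of the 10 members, all but Trp53 and Sesn2. These pairs leave out replicate 1 of nc shRNA and replicate 6 of P16 shRNA. The share of all genes lower in both pairs was not counted, so no excess is read from the 8 members. With the block over the 12 libraries, Mdm2 (-0.92, adjusted p = 0.00928), Ccng1 (-0.73, 0.0143), Bax (-0.40, 0.0339), Zmat3 (-0.58, 0.0145), Phlda3 (-0.74, 0.00619) and Eda2r (-0.69, 0.0142) were lower at an adjusted p under 0.05, beside 8.33% of all genes. With the block over the 6 libraries of these groups no gene of the table passed, or 0%, and the same 6 members were lower at an unadjusted p under 0.05, which 16.5% of all genes passed. Bax and Phlda3 had not passed at either threshold without the block.

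**Figure D3:**
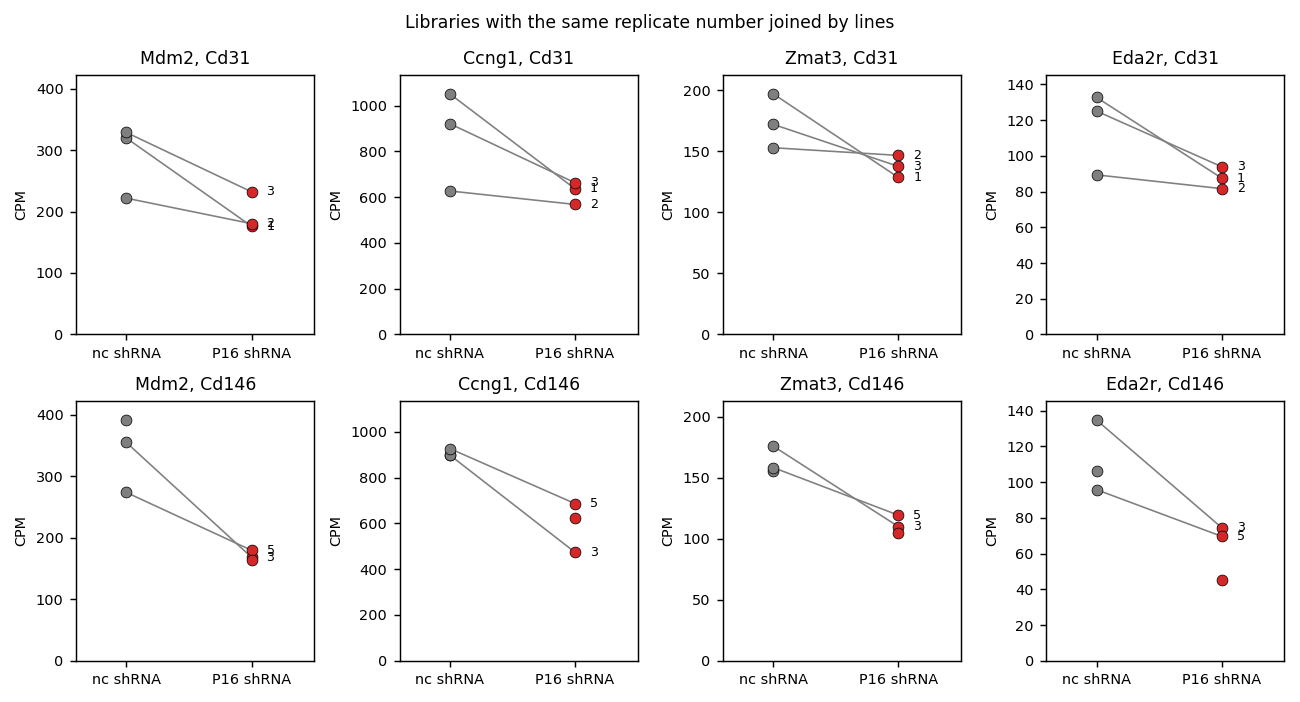
Level in CPM (vertical axes, from 0) of Mdm2, Ccng1, Zmat3 and Eda2r with nc shRNA (grey) and P16 shRNA (red) in Cd31 (top) and Cd146 cells (bottom), with lines joining libraries of the same replicate number. Every line runs down, 3 in Cd31 and 2 in Cd146 cells for each gene, and the Cd146 points of the constructs do not overlap.

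In Cd31 cells the unadjusted p of Mdm2, Ccng1, Zmat3 and Eda2r rose over 0.05 for most of the libraries left out. Their log2 fold changes stayed below 0, at -0.73 to -0.46 for Mdm2. When single libraries were dropped, the unadjusted p of Mdm2 stayed under 0.05 only without replicate 2 of nc shRNA or replicate 3 of P16 shRNA, and reached 0.0657 otherwise. That of Ccng1 and that of Eda2r stayed under 0.05 only without replicate 2 of nc shRNA (highest unadjusted p = 0.131 and 0.120 by edgeR), and that of Zmat3 only without replicate 2 of either construct (highest unadjusted p = 0.0879). In Cd146 cells Mdm2, Zmat3 and Eda2r kept an unadjusted p under 0.05 in all 6 such fits, and Ccng1 in 5, with an unadjusted p = 0.0550 by edgeR without replicate 3 of P16 shRNA. The difference between the populations was tested directly and no member passed: the log2 fold change of Mdm2 was lower by 0.43 ± 0.31 (SE) in Cd146 than in Cd31 cells (unadjusted p = 0.175 by edgeR), that of Eda2r by 0.43 ± 0.33 (unadjusted p = 0.208) and that of Bbc3 by 0.47 ± 0.32 (unadjusted p = 0.159). Of all genes 0% passed the adjusted and 1.20% the unadjusted threshold for that difference. With the replicate block Bbc3 (-0.64, adjusted p = 0.819) and Phlda3 (-0.49, adjusted p = 0.954) differed between the populations at an unadjusted p under 0.05, beside 4.55% of all genes.

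Other features of the libraries were compared between silencing and its control. Interferon-induced genes, a list of 16 of which 15 were tested, were higher at an unadjusted p under 0.05 for 14 in both populations. Their summed level was 245 to 448 CPM with nc shRNA against 743 to 2576 CPM with P16 shRNA in Cd31 cells, and 363 to 415 against 1329 to 5004 CPM in Cd146 cells. Their part in the results for the members was not tested. Mitosis genes summed to 590.5 to 809 against 715 to 937 CPM in Cd31 and to 273 to 604 against 528 to 1043 CPM in Cd146 cells, with overlap in both. Endothelial marker sums overlapped, at 554 to 1175 against 352 to 733 CPM in Cd31 and 353 to 2159 against 316 to 2043 CPM in Cd146 cells. By sign alone, the log2 fold change was below 0 for 13 of 16 endothelial markers of Cd31 cells (median -0.34) and above 0 for 12 of 16 of Cd146 cells (0.22). Mesenchymal markers were higher for 8 of 11 and 9 of 11 (medians 0.15 and 0.61), macrophage markers for 6 of 11 and 9 of 11 (0.10 and 0.76) and cholangiocyte markers for 3 of 6 and 5 of 6 (0.14 and 1.20), and of the 4 lists 1 mesenchymal marker in each population and 1 endothelial marker in Cd31 cells passed the unadjusted test. The part of these cells in the results was not tested.

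The share of counts on short genes was 7.29 to 8.53% with nc shRNA and 8.51 to 8.96% with P16 shRNA in Cd31 cells, and 8.40 to 9.62% against 9.87 to 14.1% in Cd146 cells. Bax and Phlda3, at 1576 and 1559 bases, are themselves short genes, while Mdm4 (14798 bases), Zmat3 (11435), Eda2r (5891) and Mdm2 (5083) are the longest members. In replicate 6 of Cd146 P16 shRNA, with the highest share, Bax was at 161 and Phlda3 at 310 CPM, the highest of that group. Mdm4 at 47.1, Eda2r at 45.4 and Zmat3 at 105 CPM were there the lowest of all 24 libraries. Mdm2, at 164 CPM, was the lowest of that group. Without this replicate the log2 fold change in Cd146 cells was -0.38 ± 0.20 for Bax, -0.93 ± 0.24 for Phlda3 (unadjusted p = 0.0107 by edgeR), -0.24 ± 0.25 for Mdm4 and -0.67 ± 0.19 for Eda2r. Zmat3 was then at -0.54 and Mdm2 at -0.99. In that fit 5 members were lower at an unadjusted p under 0.05, Phlda3 added to the former 4, beside 8.04% of all genes. With the share as a term in the fit of 6 libraries, Mdm2 was at -0.89 ± 0.24 in Cd146 cells (unadjusted p = 0.0118) but at -0.21 ± 0.23 in Cd31 cells (unadjusted p = 0.396), and no member of Cd31 cells passed the unadjusted test, beside 8.40% of all genes. The share was higher with P16 shRNA, almost without overlap, so these fits cannot tell this term and silencing apart. In Cd31 cells 0% of all genes passed the adjusted test with the term, so the targeted Cdkn2a lost its call too. With both the share and the replicate block over 12 libraries, Mdm2 (-0.49, adjusted p = 0.00340), Ccng1 (-0.41, 0.0131) and Phlda3 (-0.33, 0.0116) were lower in Cd31 cells, 3 of 10 members beside the 19.7% of all genes that passed there. In Cd146 cells no member passed the adjusted test, as 0% of all genes did, and 6 passed the unadjusted one, beside 14.3%.

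**Figure D4:**
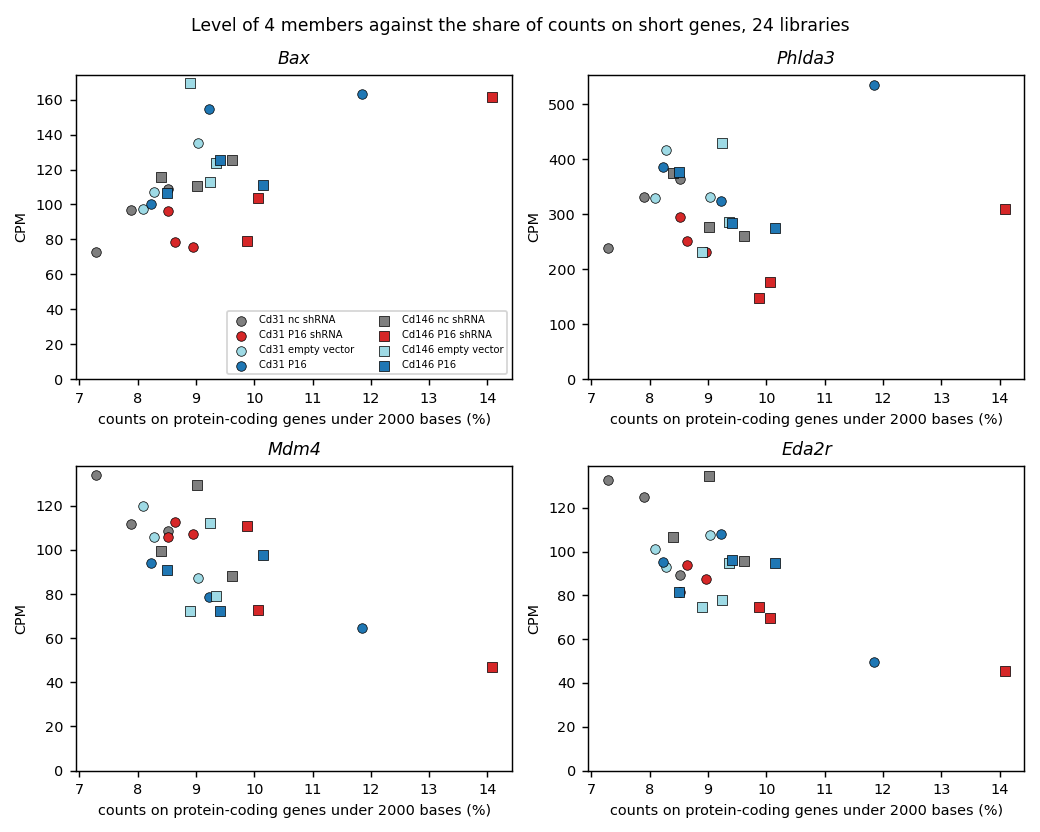
Level in CPM (vertical axes, from 0) of Bax, Phlda3, Mdm4 and Eda2r against the percentage of counts on protein-coding genes under 2000 bases (horizontal axes) in the 24 libraries, coloured by construct, with circles for Cd31 and squares for Cd146 cells. The libraries at 11.9 and 14.1% have the lowest Mdm4 and Eda2r levels of their populations, and their Bax levels of 163 and 161 CPM lie below the highest, 169.5 CPM in replicate 4 of Cd146 empty vector with a share of 8.90%.

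Overexpression of P16Ink4a was compared with the empty vector. No member differed at either threshold in either population in the main fit, without the replicate block. Over all genes, 0% passed the adjusted threshold in both populations, and 3.73% in Cd31 and 3.53% in Cd146 cells the unadjusted one. The SE of the members' log2 fold changes lay between 0.12 and 0.29 here. The median log2 fold change of the 10 was 0.00 in both populations.

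Mdm2 was at 270, 205 and 256 CPM with the empty vector and 187, 279 and 272 CPM with P16 in Cd31 cells, a log2 fold change of 0.02 ± 0.20. In Cd146 cells it was at 233, 153 and 293 against 309, 346 and 322 CPM, all 3 above the controls, with a log2 fold change of 0.52 ± 0.26 (unadjusted p = 0.0873 by edgeR). It was the one member without overlap in Cd146 cells, where 8.53% of all genes had none, and in Cd31 cells 10.7% had none. With the replicate block over the 12 libraries of Cd146 cells the value was 0.06 ± 0.18, and the P16 and empty vector groups of that population share only replicate number 5. Ccng1 had log2 fold changes of 0.06 ± 0.23 and 0.20 ± 0.24, and Trp53 of 0.01 ± 0.12 and -0.05 ± 0.20.

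Mdm4 was at 120, 106 and 87.3 CPM with the empty vector and 64.6, 93.9 and 78.8 CPM with P16 in Cd31 cells, a log2 fold change of -0.39 ± 0.18 (unadjusted p = 0.0711 by edgeR). The lowest of these was replicate 2 of P16, the library with 11.9% of counts on short genes, and without it the value was -0.26 ± 0.16. The same library had the highest Bax and Phlda3 levels of Cd31 cells, at 163 and 535 CPM, and the lowest Eda2r level, at 49.4 CPM. Without it the log2 fold change of Bax was 0.19 ± 0.25 in place of 0.30 ± 0.23, that of Phlda3 0.00 ± 0.16 in place of 0.21 ± 0.21, and that of Eda2r 0.03 ± 0.13 in place of -0.25 ± 0.29. Mitosis genes, which reflect dividing cells, were lower at an unadjusted p under 0.05 for 7 of 12 in Cd31 and 8 of 12 in Cd146 cells. Their summed level was 507 to 532 CPM with P16 against 585 to 839 CPM with the empty vector in Cd31 cells and 164 to 401 against 521 to 752 CPM in Cd146 cells, and their part in the results was not tested.

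The difference of the overexpression effects between the populations passed for no member, with Mdm2 at 0.51 ± 0.31 (unadjusted p = 0.112 by edgeR) and Bax at -0.54 ± 0.33 (unadjusted p = 0.120). Of all genes, 0% passed the adjusted and 3.82% the unadjusted threshold.

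The control constructs, which carry different vectors, were set against each other as the controls of silencing and overexpression. Cdkn2a was at 56.7 ± 19.9 and 56.7 ± 23.7 CPM (SD, n = 3) in Cd31 cells and at 139 ± 52.1 with nc shRNA and 91.9 ± 19.4 CPM with the empty vector in Cd146 cells, a log2 difference of 0.58 ± 0.31 (adjusted p = 0.907, edgeR). Relative to the empty vector, 4 of 15 interferon-induced genes in Cd31 and 11 of 15 in Cd146 cells were lower with nc shRNA in the unadjusted edgeR test, and their part in the results was not tested. In Cd31 cells Bbc3 was at 20.7, 34.0 and 27.3 CPM with nc shRNA, below 34.7, 47.2 and 43.3 CPM with the empty vector. Its log2 fold change was -0.61 ± 0.21 (unadjusted p = 0.0234, adjusted p = 0.992, edgeR), and 2 of 6 fits with 1 library left out kept the unadjusted call. In Cd146 cells Eda2r was higher with nc shRNA, by 0.44 ± 0.18 on the log2 scale (unadjusted p = 0.0475, adjusted p = 0.907, edgeR). The call held in 2 of 6 such fits, those without replicate 5 of either group. With silencing against nc shRNA, Eda2r was at -0.83 in the same Cd146 cells and at -0.39 in Cd31 cells. Ccng1 was higher with nc shRNA by 0.38 ± 0.23 in Cd31 and 0.39 ± 0.20 in Cd146 cells and Mdm2 by 0.25 ± 0.19 and 0.58 ± 0.28, without passing the unadjusted test. The silencing values against nc shRNA were -0.47 and -0.61 for Ccng1 and -0.56 and -0.99 for Mdm2.

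Over all genes, 0% passed the adjusted threshold in either population, 3.16% in Cd31 and 3.99% in Cd146 cells the unadjusted one, and 9.22% and 9.15% did not overlap. With the replicate block over the Cd31 libraries of both controls, Bbc3 (-0.59, adjusted p = 0.0109) and Ccng1 (0.46, adjusted p = 0.0396) passed in edgeR, beside 3.07% of all genes. The blocked fit of these groups could not be made in Cd146 cells, where they share 1 replicate number.

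Between the populations themselves, no member passed the adjusted test in the main fit. Sesn2 was the one past the unadjusted threshold, which 16.6% of all genes passed, so that 1 of 10 members does not exceed the background. With the control constructs Sesn2 was at 89.0 to 112 CPM in the 6 Cd31 libraries and at 69.7 to 92.4 CPM in the 6 Cd146 libraries, where replicate 1 of nc shRNA was the highest and overlapped with Cd31 cells. Its log2 difference was -0.32 ± 0.09 (SE; Cd146 against Cd31, unadjusted p = 0.00123, adjusted p = 0.0889, edgeR). Of all genes, 0.260% passed the adjusted threshold. The unadjusted call held with each of the 12 libraries left out in turn. With DESeq2 the adjusted p was 0.0254 and with the replicate block 0.0496, where 4.69% of all genes passed. That block treats equal numbers in both populations as the same replicate. The labels give no such link, and the pairing was checked only within each population. Bax was next, higher in Cd146 cells by 0.30 ± 0.17 on the log2 scale (unadjusted p = 0.0899 by edgeR).

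The wider p53 pathway was read from lists of 46 other p53 targets, 44 of them tested in each of the 4 comparisons, and of regulators and relatives of the members. With silencing, 11 of the 44 targets were lower and 5 higher at an unadjusted p under 0.05 in Cd31 cells, with a median log2 fold change of -0.16. In Cd146 cells 14 were lower and 0 higher, with a median of -0.23. In those comparisons 10.3% and 6.18% of all genes were lower, as given above, also for the counts by list that follow. With the replicate block, 15 were lower and 3 higher at an adjusted p under 0.05 in Cd31 cells with the 6 libraries, where 18.8% of all genes passed, and 15 lower and 2 higher in Cd146 cells with the 12 libraries, where 8.33% did. In Cd146 cells 0 of them passed with the block over the 6 libraries, or with the block over 12 and the short-gene share. With overexpression 0 of the 44 passed the unadjusted test in Cd31 cells, and 1 was higher and 2 lower in Cd146 cells.

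Targets in cell death held the 2 listed genes that passed the adjusted test in the main fit. Trp53inp1, a stress-induced nuclear protein that promotes p53 activity, was at 195, 202 and 201 CPM with nc shRNA and 91.9, 119 and 105 CPM with P16 shRNA in Cd31 cells, a log2 fold change of -0.91 ± 0.12 (adjusted p = 0.0223 by edgeR). The values in Cd146 cells were 191, 192 and 159 against 75.5, 109 and 74.7 CPM, with a log2 fold change of -1.06. Perp, a membrane protein of p53-dependent apoptosis, fell by 1.23 ± 0.17 on the log2 scale in Cd31 cells (adjusted p = 0.0301). With any 1 library left out neither kept an adjusted p under 0.05 (0.0605 to 0.125 for Trp53inp1 and 0.0657 to 0.148 for Perp). In Cd146 cells Perp had no common direction, at 14.7, 7.17 and 43.7 against 0.958, 34.1 and 63.4 CPM. Of the 12 death targets tested, 4 were lower and 1, the death receptor gene Fas, higher in Cd31 cells at an unadjusted p under 0.05, and 5 were lower and 0 higher in Cd146 cells. Those named by the rule in Cd146 cells were Trp53inp1, Pidd1 (-1.10, a death-domain scaffold) and the TRAIL receptor gene Tnfrsf10b (-0.55).

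Of 9 targets in DNA repair, 2 were lower at an unadjusted p under 0.05 in both populations, and they were the same: Polk, a polymerase that copies past damage (-0.61 in Cd31 and -1.02 in Cd146 cells on the log2 scale), and Ercc5, an endonuclease of excision repair (-0.33 and -0.90). Of 13 targets in metabolism and other roles, 4 were lower and 2 higher in Cd31 cells, among them Ephx1 (-0.54, an epoxide hydrolase), Zfp365 (-0.53) and Cpt1c (-0.38) on one side and Gls2 (0.86, a glutaminase) and Ddit4 (0.66, an inhibitor of mTORC1) on the other. In Cd146 cells 6 were lower and 0 higher, with Cpt1c (-0.97), Cd80 (-0.78) and Abhd4 (-0.72) named by the rule. Of 10 targets in cell cycle arrest, the polo-like kinase gene Plk2 was higher (0.64) and Plk3 lower (-0.66) in Cd31 cells, and Gtse1 lower (-0.53) in Cd146 cells. Cdkn1a, the gene of the Cdk inhibitor p21 and the best known p53 target of this group, was named after its values were seen. Its log2 fold change was -0.33 ± 0.15 (adjusted p = 0.280) in Cd31 and -0.28 ± 0.37 (adjusted p = 0.760) in Cd146 cells. With the replicate block it was -0.34 (6 libraries, adjusted p = 0.0310) and -0.65 (12 libraries, adjusted p = 0.00779), and with the short-gene share added to the Cd146 block its adjusted p was 0.163. It passed the adjusted test under 3 of 15 alternatives in Cd31 cells. In Cd146 cells it passed under 1 of 16 and changed sign under 1, and the block over 6 libraries called 0% of all genes.

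The counts of p53 regulators past the unadjusted test did not exceed the shares of all genes, 19.8% in Cd31 and 11.6% in Cd146 cells. The same shares stand beside the other lists of this paragraph. Of 27, 1 was higher and 2 lower in Cd31 cells at an unadjusted p under 0.05, and 1 higher and 0 lower in Cd146 cells. The higher one was Daxx, a histone chaperone that also binds Mdm2, in both (0.67 and 0.77), and the lower ones were the kinase gene Hipk2 (-1.12) and the acetyltransferase gene Ep300 (-0.33). Of 12 regulators of Arf, E2f1 was higher (0.39) and Foxo3 (-0.32) and the polycomb gene Bmi1 (-0.31) lower in Cd31 cells, and Ezh2 higher (0.58) and Foxo3 lower (-0.79) in Cd146 cells. In the BCL-2 family, relatives of Bax and Bbc3, the survival gene Bcl2l1 was lower in both (-0.84 and -0.71). Bmf (0.60) was higher in Cd31 cells, and in Cd146 cells Bak1 (0.49) was higher and Bcl2 (-0.90) lower, out of 9 tested in both. Among relatives of the other members, Xiap, an inhibitor of caspases (-0.75 and -0.89), and Zmat1 (-0.82 and -0.68) were lower in both populations. Sesn3, the relative of Sesn2 (-0.47), was lower in Cd31 cells and Zmat2 (0.45) higher in Cd146 cells.

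**Figure D5:**
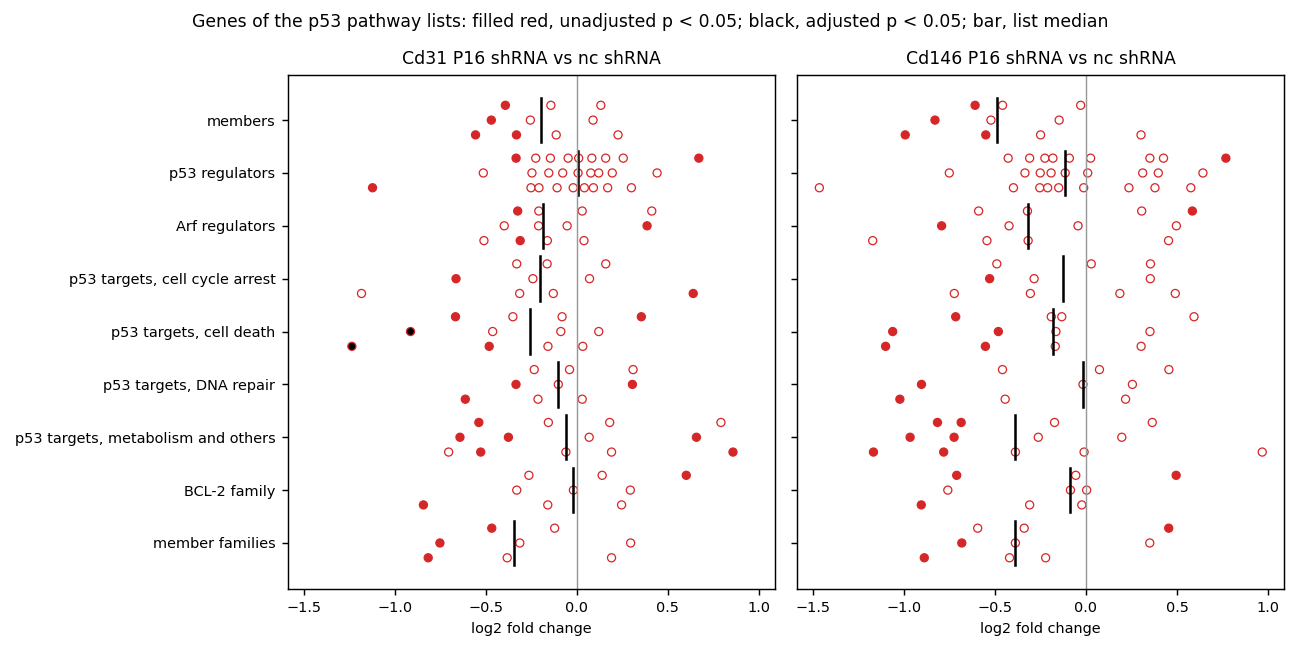
Log2 fold change (horizontal axes) of every tested gene of the p53 lists with P16 shRNA against nc shRNA in Cd31 (left) and Cd146 cells (right), by list, with a bar at each list's median, red fill for an unadjusted and black fill for an adjusted p under 0.05. The black points are Trp53inp1 and Perp in Cd31 cells, and the medians of the 10 members lie at -0.20 and -0.49.

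With overexpression, few genes of these lists passed the unadjusted test, as did 3.73% of all genes in Cd31 and 3.53% in Cd146 cells. In Cd31 cells these were Sirt1 (-0.49), a deacetylase that acts on p53, Ezh2 (-0.29), Twist1 (0.34), and in the BCL-2 family Bad (0.45) and Bcl2l11 (-0.55). In Cd146 cells they were Ezh2 (-0.83), Ckap2 (-1.12), Cd80 (-1.26) and Mgmt (0.36). Ezh2, which marks chromatin at the Cdkn2a locus, was the one gene lower in both populations. With the replicate block over the 6 Cd31 libraries, 1 target, Gdf15, a stress-induced cytokine gene named after its values were seen, was higher (0.82, adjusted p = 0.0492), beside 0.632% of all genes. It passed under that 1 of 16 alternatives, and with the block over 12 libraries its adjusted p was 0.271, or 0.639 with the short-gene share added.

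The genes whose pattern over the 24 libraries was most like that of each member were found by the root mean square difference of z-scored log2 CPM among 13415 genes with a mean of at least 1 CPM. This is a description over libraries that share groups and replicate numbers. They include the silencing groups in which some members were seen to be lower. Nearness among those members is therefore not separate evidence. Members that were lower with silencing lay near each other: among the 100 genes nearest to Ccng1 were Mdm2, Zmat3 and Eda2r, among those nearest to Zmat3 were Mdm2 and Eda2r, among those nearest to Mdm2 was Ccng1, and among those nearest to Eda2r was Zmat3. The other 6 members had 0 members among their 100 nearest.

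The DNA polymerase gene Polk, itself on the list of p53 targets, was the gene nearest to Mdm2, at a difference of 0.414 SD units, followed by Pitpnc1 and Ralgps1. Nearest to Ccng1 were the long noncoding RNA gene Airn (0.554), Hspa4l and Gria3. For Zmat3 they were Arih1 (0.517) and Eda2r (0.551), and for Eda2r Cpeb4 (0.466), Ccdc50 and Ube4a. Trp53 was most like Nsun2 (0.452), Trim27 and Tbrg4, and Mdm4 like Cbfa2t2 (0.325), Son and Tcf20. Bax was most like Slc39a13 (0.393), Tm2d2 and Adh5, Bbc3 like Cttn, Vps72 and Anxa11, Sesn2 like Srrm1, Tmem64 and Fbxo42, and Phlda3 like Cnn2, Tmem184a and Tcf25.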

How the data were processed

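RNA sequencing was available for 24 libraries in 8 groups of 3, formed from the sample labels by bead population and construct. The authors deposited raw read counts per gene for each library. The same table holds 24 columns of FPKM and the fold changes and p-values of 4 comparisons, none of which was used. The submitters' processing notes name fastp and mm9, and the aligner and counter are not given in the sources used here. A protocol that may be directional or not leaves the use of strand unknown. Values in CPM were computed with TMM factors.

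The deposited counts were tested with edgeR 4.0.16 in R 4.3.3 (quasi-likelihood, robust, filterByExpr, two-sided, Benjamini-Hochberg adjustment over all genes tested), with the 6 libraries of the groups compared or, for differences between populations, all 24. A gene was called at an adjusted p of 0.05. The exact permutation test of 3 against 3 libraries cannot go below 0.1 and was not used. Alternatives were DESeq2 1.42.0 (size factors and Wald test), other count filters, a fit of 12 libraries, a replicate block and each library left out. The share of counts on short genes as a term, that share with the block, and leaving out the libraries highest in it were chosen after seeing the data. The scripts were tested on simulated data. Levels were drawn with matplotlib 3.10.9.

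Replicate numbers come from the labels, which do not say what they stand for. Libraries of the same number deviated together over 13415 genes: the median correlation was 0.63 in 13 pairs of Cd31 libraries (lowest 0.392) and 0.739 in 10 pairs of Cd146 libraries (lowest 0.355), against -0.20 in 41 and -0.09 in 44 pairs of unlike numbers. They were therefore taken to pair the samples within a population. The main fit does not use this pairing, and the blocked fits are given beside it.

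The members and gene lists were chosen with earlier results of these data known. All members and Cdkn2a are named. From each list, genes past the adjusted threshold were named, up to 5 in a direction, or, where there was none, up to 3 in a direction at an unadjusted p under 0.05, with the smallest p. A few genes that these rules would name are not reported here.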

Additional observations from a re-analysis of the deposited data

How the results depend on the processing

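For 113 fold changes of single genes there were 1730 alternative values: 1539 kept their direction and their side of an adjusted p of 0.05, 117 kept their direction and came to pass it, 21 kept it and no longer passed, and 53 changed sign. Of the 21 losses, 17 came from leaving out 1 library. In Cd31 cells the adjusted p of Cdkn2a with silencing was 0.0410 to 0.125 over these. The replicate block, with and without the short-gene share, lost no call, and added those given in the report and others among the list genes. The sign changes of members lay mostly in the comparison of P16 with the empty vector, where values were near 0. The cause of these moves was not tested. With 3 libraries a group, the SE of the members' log2 fold changes with silencing was 0.10 to 0.33, and the counts of calls below show how far the number of called genes depends on the fit.

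Over all genes, the silencing comparison of Cd31 cells called 186 genes at an adjusted p under 0.05. The count was 1294 with all genes of at least 1 count, 1096 with the DESeq2 Wald test, 373 with the 12 libraries of the population, 2703 with the replicate block in 2 groups, 2586 with the block in 12 libraries, 0 with the short-gene share as a term, 3034 with that share and the block, and 0 to 64 with 1 library left out, being 0 without replicate 1, 2 or 3 of P16 shRNA. At an unadjusted p it was 2843, and 4871 and 4795 with the blocks in 2 groups and 12 libraries, 1206 with the share and 5083 with share and block. In Cd146 cells silencing called 0 genes at an adjusted p (1757 unadjusted). These became 19 with all genes of at least 1 count, 333 with DESeq2, 11 with 12 libraries and 1326 with the block in 12 libraries (4362 unadjusted), and the unadjusted count was 714 with the share as a term and 815 to 2350 with 1 library left out.

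Overexpression called 0 genes at an adjusted p in Cd31 cells (544 unadjusted). These became 10 (1124 unadjusted) with all genes of at least 1 count, 4 with DESeq2, 92 (1163) with the block in 2 groups, 1 (1766) with the block in 12 libraries, 1 (975) with share and block, 954 unadjusted with 12 libraries, and 189 to 1037 unadjusted with 1 library left out. In Cd146 cells it called 0 (525 unadjusted), then 1 (792) with DESeq2, 2 (284) with the block in 12 libraries, 854 unadjusted with all genes of at least 1 count, 172 with share and block, and 221 to 1292 with 1 library left out.

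Between the control constructs of Cd31 cells 0 genes passed (458 unadjusted), then 11 (977) with all genes of at least 1 count, 18 with DESeq2, 4 with 12 libraries, 444 (1900) with the block in 2 groups and 20 (1600) with the block in 12 libraries. In Cd146 cells 0 passed (597 unadjusted), then 5 with DESeq2, 932 unadjusted with all genes of at least 1 count, 324 with the block in 12 libraries and 184 to 1510 with 1 library left out. Between the populations 43 passed, then 565 with DESeq2, 775 with the block, and 3 to 201 with 1 library left out. For the difference of the silencing effects 0 passed (199 unadjusted), then 650 unadjusted with all genes of at least 1 count, 752 with the block and 139 to 699 with 1 library left out. For the difference of the overexpression effects 0 passed (631 unadjusted), then 3 with DESeq2, 13 (414) with the block, 1176 unadjusted with all genes of at least 1 count, and 0 to 12 adjusted and 359 to 1276 unadjusted with 1 library left out.

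Members that changed sign did so at the following log2 fold changes. With all genes of at least 1 count, Trp53 was at -0.0056 in Cd31 and Sesn2 at -0.0051 in Cd146 cells with overexpression. With the block in 2 groups, Mdm2 was at -0.020 in Cd31 cells with overexpression. With the block in 12 libraries and overexpression, Mdm2 was at -0.048 in Cd31 cells, and Bax was at 0.042, Sesn2 at -0.036, Zmat3 at -0.00052 and Eda2r at -0.092 in Cd146 cells. With share and block, Mdm4 was at 0.0075 with silencing in Cd31 cells, and with overexpression Zmat3 was at 0.17 and Phlda3 at -0.032 in Cd31 cells and Bax at 0.018, Sesn2 at -0.0036 and Phlda3 at 0.0087 in Cd146 cells. With the share alone and silencing, Mdm4 was at 0.060, Bbc3 at -0.092 and Sesn2 at -0.044 in Cd31 cells and Mdm4 at 0.0096 in Cd146 cells. With the share alone and overexpression, Zmat3 was at 0.11 and Eda2r at 0.030 in Cd31 cells and Phlda3 at 0.0063 in Cd146 cells. Without replicate 2 of Cd31 P16, Zmat3 was at 0.10, Phlda3 at -0.0034 and Eda2r at 0.029.

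With 1 library left out, silencing in Cd146 cells gave -0.38 to 0.18 for Bax and -0.59 to 0.0011 for Cdkn1a. Overexpression in Cd31 cells gave -0.053 to 0.095 for Trp53, -0.087 to 0.19 for Mdm2, -0.11 to 0.23 for Ccng1, -0.10 to 0.10 for Zmat3, -0.0034 to 0.35 for Phlda3 and -0.48 to 0.029 for Eda2r. In Cd146 cells it gave -0.18 to 0.087 for Trp53, -0.13 to 0.19 for Mdm4, -0.27 to 0.16 for Bbc3, -0.093 to 0.11 for Sesn2, -0.062 to 0.13 for Zmat3 and -0.20 to 0.27 for Phlda3.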
